A study of Mus musculus with 33 samples.

Results

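The core pluripotency transcription factors described here are 10 genes: Pou5f1, Nanog, Sox2, Sall4, Zfp42, Esrrb, Tfcp2l1, Klf2, Klf4 and Klf5. They were taken by name, as every non-control probe of the array that its design annotates to one of these genes or to an older name of it. This gave 18 of 41174 probes, and all 10 genes were among the 15760 genes tested. Their expression was measured in 33 single mouse blastocysts, each on an Agilent array of its own, to ask how blastocysts cloned by nuclear transfer differ from fertilised ones. Values are log2 of a probe's signal over the 75th percentile of its array, so 0 is the level of that percentile. The brightest probe stood for a gene, and levels are set against each other within a gene and never between genes.

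The strain was (C57BL/6NxDBA/2)F1 throughout, and the protocol gives 96 h of culture for the cloned embryos. The male clones came from adult Purkinje neurons of the cerebellum (n = 4), adult CA1 pyramidal neurons of the hippocampus (n = 4) and neonatal Sertoli cells, which nurse the germ cells in the testis (n = 4), and were set against male in vitro fertilised (IVF) blastocysts (n = 7). The female clones came from adult Purkinje neurons (n = 4), adult CA1 neurons (n = 4) and cumulus cells, which surround the oocyte (n = 3), and were set against female IVF blastocysts (n = 3). Per the labels' protocol, reconstructed oocytes received trichostatin A (TSA), which blocks histone deacetylases, at a concentration of 50 nM: 1 h while being activated, then 5 h together with cytochalasin B and a further 2 h alone. The titles of the clone samples read "TSA treated", and those of the IVF samples read "control" and do not name TSA. The IVF samples carry the same protocol text as the clones, which describes TSA for reconstructed oocytes, and whether IVF embryos received TSA is not stated in it. If they did not, as the titles read, cloning and TSA cannot be told apart in any comparison with IVF. The labels say that each RNA came from a single blastocyst and do not tie embryos to donor animals or transfer sessions, so p-values measure the spread between these embryos.

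Pou5f1 (Oct4), Sox2 and Nanog form the centre of the network that keeps the cells of the inner cell mass and epiblast pluripotent, and Sall4 is a zinc finger factor that acts with them. Esrrb, Tfcp2l1, Klf2, Klf4 and Klf5 sustain the naive state, several of them downstream of LIF signalling, and Klf5 is also needed in the trophectoderm, the outer layer of the blastocyst. Zfp42 (Rex1) is a zinc finger gene used as a marker of naive cells. Because a whole blastocyst was measured, fewer cells of a type and less RNA per cell cannot be told apart.

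Promoter sequence is shown for Nanog and Zfp42, the members whose promoters hold one of the longer motifs searched. The RefSeq promoter table (build GRCm38.p6) matched 8 of the 10 members, and the 250 bases before each annotated start were searched, of which those before the first start are printed. The Oct-Sox composite motif, the Sox motif CATTGT followed after 1 base of any kind by ATGCAAA, was present in the Nanog window on the strand opposite to the gene and is in capitals below. It occurred in 2 of the 32851 promoter windows of the table (0.00609%), both of them windows of Nanog, which has overlapping windows for 2 starts. The octamer ATGCAAAT, the core of the Oct-factor site, was in the Zfp42 window, also on the strand opposite to the gene, and is likewise in capitals, and 1.6% of all windows held it on either strand.
Nanog, chr6:122707239-122707488, plus strand: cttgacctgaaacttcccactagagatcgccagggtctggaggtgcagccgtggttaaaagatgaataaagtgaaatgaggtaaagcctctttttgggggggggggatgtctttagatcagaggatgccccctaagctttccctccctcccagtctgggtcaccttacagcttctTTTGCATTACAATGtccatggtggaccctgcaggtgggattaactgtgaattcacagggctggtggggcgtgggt
Zfp42, chr8:43307010-43307259, minus strand: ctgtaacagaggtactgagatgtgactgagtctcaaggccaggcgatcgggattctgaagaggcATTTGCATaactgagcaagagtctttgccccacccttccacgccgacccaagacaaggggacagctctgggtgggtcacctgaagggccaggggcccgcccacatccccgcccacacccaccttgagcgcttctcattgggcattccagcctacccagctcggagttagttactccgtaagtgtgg
The short Klf motif CCACCC was found before the first start of Pou5f1, Zfp42, Klf2 and Esrrb and, for Nanog, in the window of its later start alone, against 28.1% of all windows. The Sox motif CATTGT was found within the composite of Nanog and, for Pou5f1, in the window of a later start alone, against 10.7%. The Esrrb motif TCAAGGTCA (0.387% of all windows) and the Tfcp2l1 motif, CCAG repeated after 6 bases of any kind (2.78%), matched no member's window on either strand. A match describes the letters of a window and does not show binding.

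The arrays formed 2 sets. The IVF and cumulus arrays (13) were scanned on scanner G2505B with Feature Extraction 9.5.3.1, and the neuronal and Sertoli clone arrays (20) on G2505C with 10.5.1.1. The array set and the difference between neuronal or Sertoli clones and IVF blastocysts therefore cannot be told apart, while cumulus clones and IVF blastocysts shared a set. No clone group shared its slide with another group, or its scan day with clones of another donor cell or with IVF blastocysts. Both sexes of Purkinje clones were scanned on 1 day, and both sexes of CA1 clones on another. Donor cell therefore cannot be told apart from slide and scan day. Arrays of Purkinje clones were dim: their 75th percentile of signal was 229.9 to 661.1 (male) and 354.7 to 840.4 (female), and 917.4 to 1450.3 in every other group. The standing probe of each member was well above background on all 33 arrays and saturated on none.

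In the comparisons with IVF blastocysts of the same sex, Zfp42 was the factor that passed the test most often, higher in 5 of 6. A gene passed at a limma p adjusted over all genes under 0.05. In male Purkinje clones Zfp42 and Tfcp2l1 rose and no factor fell, where 28.8% of all genes passed (18.7% higher, 10.1% lower). Tfcp2l1 did not pass there with normexp, scaling to the array median or quantile normalization (changes 0.14 to 0.34), while Pou5f1 passed as lower with each of them and Klf4 with normexp (-1.17, adjusted p = 0.04229). In male CA1 clones Zfp42 rose and Sall4 fell, where 31.3% passed (18.2% higher, 13.1% lower). In Sertoli clones Zfp42, Nanog and Esrrb rose and Pou5f1 fell, where 26.3% passed (16.1% higher, 10.2% lower). In female Purkinje clones Zfp42 rose, where 20.4% passed (14% higher, 6.38% lower). In female CA1 clones 0 of the 10 passed and 1 had an unadjusted p under 0.05, where 14.1% passed (9.47% higher, 4.68% lower). In cumulus clones Zfp42 and Sall4 rose, where 5.25% passed (2.04% higher, 3.2% lower). The 0 to 4 of 10 that passed made a smaller share than that of all genes in 4 comparisons and a larger one in Sertoli and cumulus clones, and nothing particular to the factors is read from these counts. Sox2, Klf2, Klf4 and Klf5 passed in none of the 6. The median change of the 10 ran from -0.08 in cumulus clones, where the median of all genes was -0.01, to 0.39 in female Purkinje clones, where it was 0.10. The comparisons of a sex share their IVF embryos, so they are not independent of each other.

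**Figure D1:**
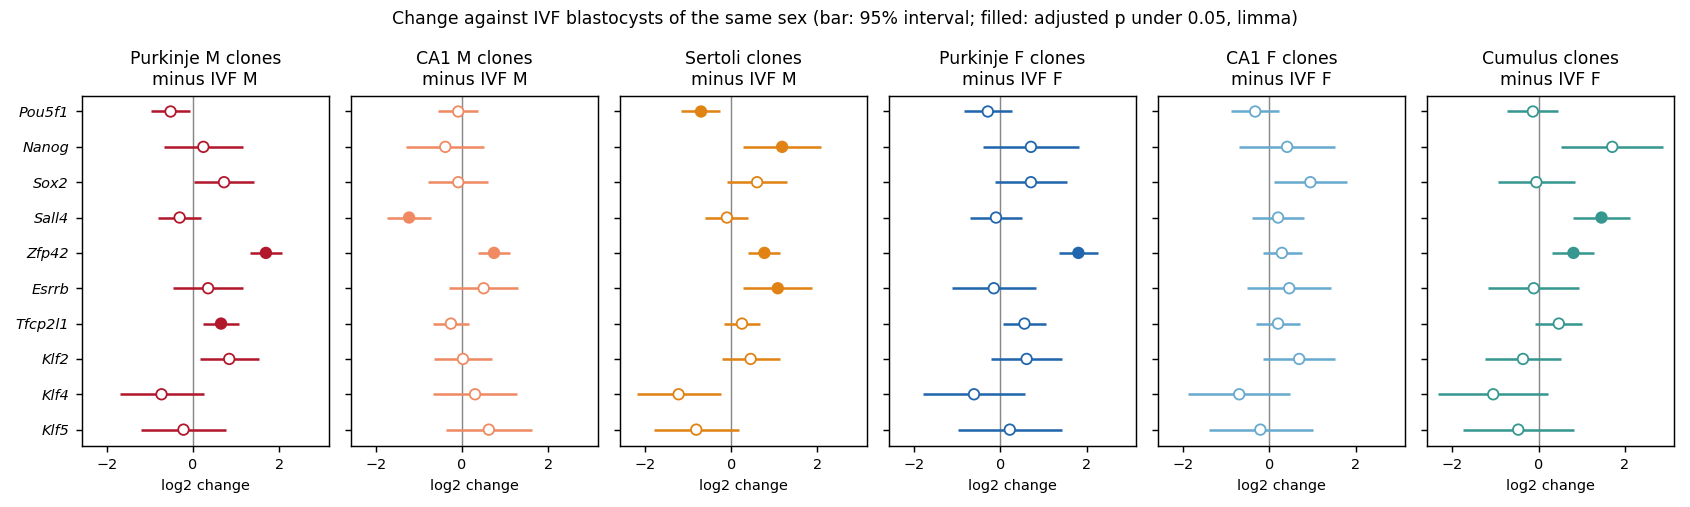
Difference of mean log2 values for each factor (rows), clones minus IVF blastocysts of the same sex, with its 95% interval, filled where the adjusted p was under 0.05 in limma. Zfp42 lies right of 0 in every panel, at 1.69 and 1.81 in Purkinje clones, and Sall4 lies at -1.23 in male CA1 clones and 1.46 in cumulus clones.

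Zfp42 had the clearest separation by donor cell. Its levels were 6.51, 6.37, 7.16 and 7.06 in male Purkinje clones, 5.82, 5.68, 5.92 and 5.87 in male CA1 clones and 5.51, 5.93, 5.69 and 6.29 in Sertoli clones, against 4.81 to 5.32 (median 5.08) in the 7 male IVF blastocysts. Each of the 12 male clones exceeded the highest male IVF embryo. The change was 1.69 ± 0.18 (SE; 3.23-fold, adjusted p = 3.135e-07) in Purkinje, 0.74 ± 0.18 (1.67-fold, adjusted p = 0.002663) in CA1 and 0.77 ± 0.18 (1.71-fold, adjusted p = 0.002447) in Sertoli clones.

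In females the levels were 6.19, 7.09, 7.09 and 7.05 in Purkinje clones, 5.32, 5.01, 5.33 and 5.70 in CA1 clones and 6.05, 5.68 and 5.83 in cumulus clones, against 5.08, 5.10 and 4.97 in IVF blastocysts. Purkinje and cumulus clones lay wholly above the IVF embryos, and CA1 clones overlapped them. The change was 1.81 ± 0.22 (3.51-fold, adjusted p = 3.861e-06) in Purkinje clones and 0.81 ± 0.24 (1.75-fold, adjusted p = 0.04338) in cumulus clones, within 1 array set. In CA1 clones it was 0.29 ± 0.22 (adjusted p = 0.4216). The cumulus call was lost when any 1 of its 6 arrays was left out (adjusted p 0.08011 to 0.1484, changes 0.71 to 0.90). In order of mean, the female and male IVF groups were lowest at 5.05 ± 0.07 and 5.08 ± 0.18 (SD), followed by female CA1 (5.34 ± 0.28), male CA1 (5.82 ± 0.11), Sertoli (5.85 ± 0.33), cumulus (5.85 ± 0.18), male Purkinje (6.78 ± 0.40) and female Purkinje clones (6.86 ± 0.44). Neighbours in this order overlapped, except cumulus and male Purkinje clones.

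Zfp42 has a second probe, 52 bases nearer the 5′ end by the array's design. On this probe male Purkinje clones read 4.50, 4.64, 5.29 and 5.27 and female Purkinje clones 4.53, 5.27, 5.35 and 5.33, against 3.58 to 4.25 in male and 3.54, 3.81 and 3.56 in female IVF blastocysts. The Purkinje groups again lay wholly above IVF, by 1.06 ± 0.21 in males (adjusted p over probes = 0.0005873) and 1.48 ± 0.26 in females (adjusted p over probes = 0.0003506). The change on this probe was -0.09 in male CA1 clones, -0.16 in Sertoli clones and 0.57 in cumulus clones, with adjusted p over probes of 0.8191, 0.6509 and 0.2529. The rise on both probes was therefore measured in Purkinje clones, and in CA1, Sertoli and cumulus clones the second probe did not pass. With the mean of both probes the male CA1 and Sertoli changes were 0.32 and 0.31 (adjusted p = 0.2176 and 0.2583). RefSeq lists 1 Zfp42-related sequence, whose signal the probes could share.

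**Figure D2:**
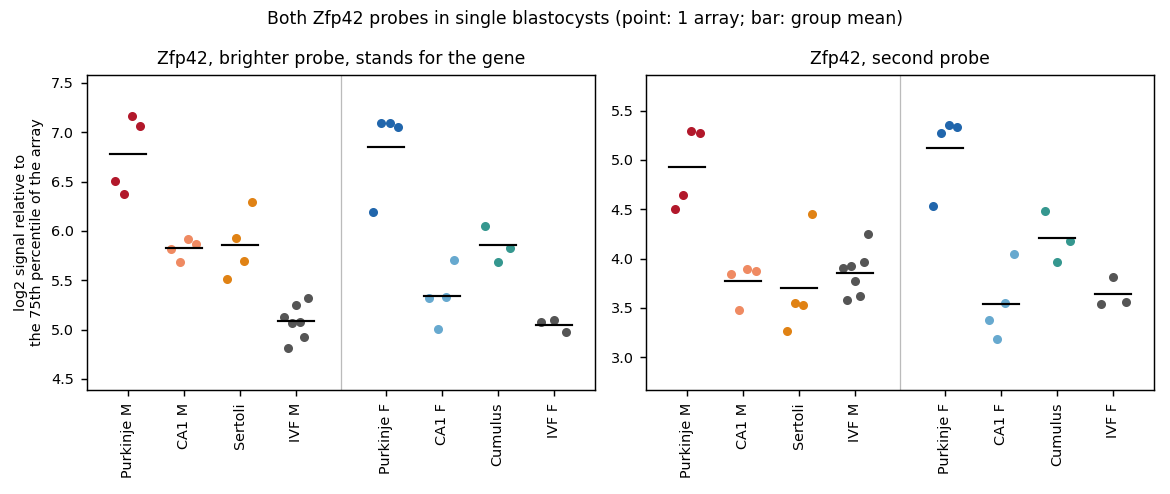
Level of Zfp42 on its brighter (left) and second (right) probe, log2 relative to the 75th percentile of the array, with points for single arrays and bars for group means. Purkinje clones of both sexes stand above the IVF blastocysts on both probes, whereas male CA1 and Sertoli clones do so on the brighter probe and overlap IVF on the second.

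The higher Zfp42 values within the Purkinje groups came from arrays of low overall signal. The 5 Purkinje arrays with a 75th percentile under 500 gave 7.05 to 7.16, and the other 3, at 661.1, 604.2 and 840.4, gave 6.51, 6.37 and 6.19. Without those 5 arrays Zfp42 was still higher than in IVF, by 1.36 in males (adjusted p = 6.649e-05) and by 1.15 in females (adjusted p = 0.02011, 1 female Purkinje array left and assumed to vary like the other groups). The 1576 brightest genes, to which Zfp42, Tfcp2l1 and Klf5 belong, had a median change of 0.46 in male and 0.54 in female Purkinje clones against IVF. Zfp42 lay at the 98.6th and 99th percentile of these genes. Tfcp2l1 lay at the 64.5th and 52nd. The part of array signal in these changes was not tested.

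**Figure D3:**
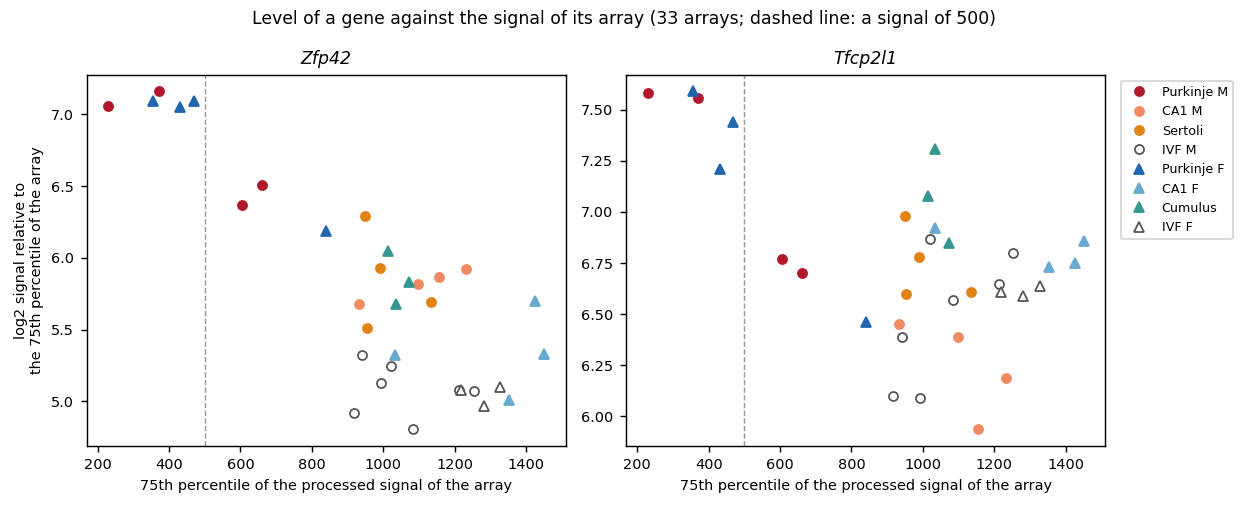
Level of Zfp42 (left) and Tfcp2l1 (right), log2 relative to the 75th percentile of the array, against that percentile of the processed signal. The 5 Purkinje arrays left of the dashed line hold the highest Zfp42 values, 7.05 to 7.16, and the other Purkinje arrays hold 6.19 to 6.51.

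Among the central factors, Pou5f1, which encodes Oct4, had group means within 0.70 of each other, from 3.59 in Sertoli clones to 4.29 in male IVF blastocysts. Its levels were 3.19 to 4.23 in male Purkinje clones, 4.07 to 4.39 in male CA1 clones, and 3.29, 3.05, 3.55 and 4.47 in Sertoli clones, against 4.02 to 4.44 (median 4.34) in male IVF blastocysts. The fall in Sertoli clones was -0.70 ± 0.22 (adjusted p = 0.02036), and 3 of the 4 embryos lay below every IVF embryo while the fourth lay above them. The call was lost without Sertoli replicate 1 or 2 (changes -0.60 to -0.52, adjusted p 0.08109 to 0.1189). In male Purkinje clones the change was -0.52 ± 0.22 (adjusted p = 0.08292), and -0.67 (adjusted p = 0.03915) without Purkinje replicate 1. It was -0.90 with normexp, -0.83 with scaling to the array median and -0.85 with quantile normalization, and passed with each (adjusted p = 0.02948, 0.01122 and 0.006214). Female clones held 3.46 to 4.39, against 4.08, 4.68 and 4.01 in female IVF blastocysts, with changes of -0.29, -0.33 and -0.13 in Purkinje, CA1 and cumulus clones, none of which passed. With scaling to the array median the female Purkinje change was -0.87 and passed (adjusted p = 0.03293). RefSeq lists 5 Pou5f1-related sequences, so its 1 probe may also read copies.

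Nanog, the homeodomain factor of the epiblast, varied widely from embryo to embryo. It read 2.11, 3.47, 2.78 and 4.27 in Sertoli clones, against 0.57 to 2.82 (median 1.87) in male IVF blastocysts. It rose by 1.18 ± 0.44 (2.26-fold, adjusted p = 0.04925), with overlap, just inside the threshold. The call was lost without any 1 of Sertoli replicates 2, 3 and 4 or IVF replicates 2, 3, 4 and 5 (changes 0.80 to 1.30, adjusted p 0.05907 to 0.2243). Left-out arrays included, 16 of 22 alternatives lost it, among them normexp, quantile normalization and the authors' deposited table. Cumulus clones read 3.59, 3.51 and 4.10, against 1.24, 2.85 and 1.97 in female IVF blastocysts. They did not overlap, and the change of 1.71 ± 0.58 had an adjusted p of 0.07844. Male Purkinje and CA1 clones held 1.48 to 3.07 and 1.10 to 2.11, and female Purkinje and CA1 clones 1.68 to 3.38 and 1.86 to 3.19, all overlapping IVF. The group means ran from 1.59 ± 0.42 in male CA1 clones to 3.73 ± 0.32 in cumulus clones, and each pair of neighbours in that order overlapped. RefSeq lists 2 Nanog-related sequences.

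Sox2, the partner of Oct4, passed in no comparison with IVF. Female CA1 clones read 1.49, 1.51, 1.62 and 0.93, against 0.53, 0.71 and 0.07 in female IVF blastocysts. They did not overlap, and the change was 0.95 ± 0.41 (adjusted p = 0.1239). Male Purkinje clones read 0.75, 1.00, 1.51 and 1.05 and Sertoli clones 1.23, 0.96, 1.07 and 0.55, within the male IVF range of -0.65 to 1.37 except the highest Purkinje clone. The male Purkinje change of 0.72 ± 0.34 (adjusted p = 0.1097) passed without IVF replicate 4 or 5 (0.88 to 0.89). With array weights the male Purkinje and Sertoli changes passed (0.96 and 0.83, adjusted p = 0.02937 and 0.02408). Across all 8 groups Sox2 passed limma's F test (adjusted p = 0.0454), as did Zfp42 (3.61e-08), Sall4 (9.937e-05), Tfcp2l1 (0.004943) and Nanog (0.01549), where 58.9% of all genes passed. Over the 5 groups of the later array set, where 28.6% of all genes passed, Zfp42, Sox2 and Tfcp2l1 passed (adjusted p = 0.0006951, 0.03101 and 0.03156).

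Sall4 moved in opposite directions in a pair of clone groups. Male CA1 clones read 3.18, 3.05, 2.59 and 1.93, against 3.67 to 4.41 (median 3.83) in male IVF blastocysts. Every clone lay below every IVF embryo, and the fall was -1.23 ± 0.24 (2.35-fold, adjusted p = 0.0003365). It passed without each of the 11 arrays in turn. Cumulus clones read 4.78, 5.06 and 4.69, against 3.00, 3.33 and 3.82 in female IVF blastocysts on the same scanner. All lay above IVF, and the rise was 1.46 ± 0.32 (2.75-fold, adjusted p = 0.009238). It was lost without cumulus replicate 2 (1.35, adjusted p = 0.05488). Male Purkinje clones held 3.22 to 4.11, Sertoli clones 3.39 to 4.41, female Purkinje clones 3.07 to 3.42 and female CA1 clones 3.05 to 4.32, with adjusted p of 0.3685, 0.8292, 0.8893 and 0.746. The means ran from 2.69 ± 0.56 in male CA1 clones to 4.84 ± 0.19 in cumulus clones, and cumulus clones did not overlap male IVF blastocysts, the next below; the other neighbours overlapped. A second, dimmer Sall4 probe, 3839 bases nearer the 5′ end, changed by -0.59 ± 0.33 in male CA1 and -0.79 ± 0.43 in cumulus clones (adjusted p over probes = 0.1913 and 0.3142). With the mean of both probes the male CA1 fall was -0.91 (adjusted p = 0.0006256) and the cumulus change 0.34 (adjusted p = 0.4925).

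**Figure D4:**
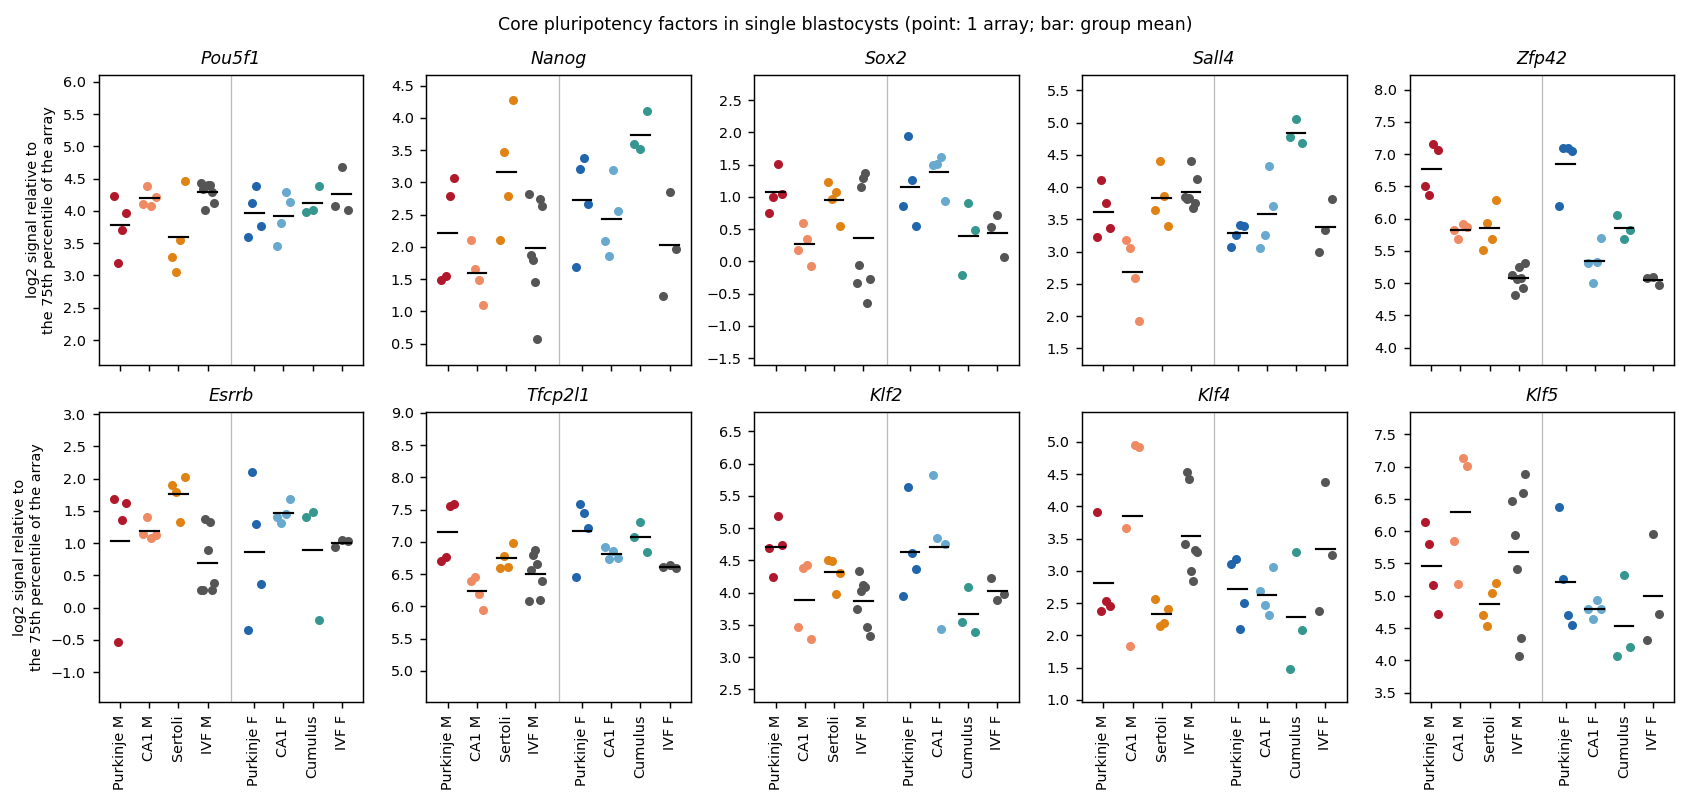
Level of each of the 10 factors in every blastocyst, log2 relative to the 75th percentile of the array, with male groups left and female groups right of the line and a bar at each group mean. Zfp42 separates Purkinje clones (6.19 to 7.16) from IVF blastocysts (4.81 to 5.32), while Nanog, Klf4 and Klf5 spread widely within groups.

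Esrrb and Tfcp2l1 maintain the naive network, and their deviations from the group means correlated at r = 0.68 over the 33 arrays, the highest of the 45 pairs of factors. Esrrb, an orphan nuclear receptor, read 1.90, 1.80, 1.33 and 2.02 in Sertoli clones, against 0.27 to 1.38 (median 0.38) in male IVF blastocysts. It rose by 1.08 ± 0.39 (2.11-fold, adjusted p = 0.04256), and 1 clone fell within the IVF range. The call was lost without any 1 of Sertoli replicates 1, 2 and 4 or IVF replicates 1, 2, 6 and 7 (changes 0.99 to 1.06, adjusted p 0.06993 to 0.1052). Left-out arrays included, 12 of 22 alternatives lost it, among them normexp, scaling to the array median and quantile normalization. Female CA1 clones, at 1.31 to 1.69, lay wholly above female IVF blastocysts, at 0.94, 1.05 and 1.04, with a change of 0.46 ± 0.48 that did not pass (adjusted p = 0.607). Purkinje clones spread most, at -0.53 to 1.68 in males and -0.34 to 2.10 in females.

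Tfcp2l1 encodes a CP2-family factor that acts downstream of LIF. It read 6.70, 6.77, 7.56 and 7.58 in male Purkinje clones, against 6.09 to 6.87 (median 6.57) in male IVF blastocysts. It rose by 0.65 ± 0.20 (1.57-fold, adjusted p = 0.01499), and the upper pair of values were from arrays with a 75th percentile of 370.4 and 229.9. Without the 5 Purkinje arrays of low signal the change was 0.24 (adjusted p = 0.4657), and without male Purkinje replicate 3 or 4 it was 0.51 to 0.52 (adjusted p 0.08804 to 0.08965). Female Purkinje clones read 6.46, 7.59, 7.44 and 7.21, against 6.61, 6.64 and 6.59 in IVF, a change of 0.56 ± 0.24 (adjusted p = 0.1059), which passed without female Purkinje replicate 1 (0.80, adjusted p = 0.0135). Cumulus clones, at 7.08, 7.31 and 6.85, and female CA1 clones, at 6.73 to 6.92, lay wholly above female IVF without passing (adjusted p = 0.3196 and 0.6734).

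A second Tfcp2l1 probe gave another picture. It read 1.56, 1.46, 1.15 and 0.85 in male CA1 clones, against 2.28 to 3.09 in male IVF blastocysts, a fall of -1.57 (adjusted p over probes = 5.794e-07) with no overlap. On that probe female CA1 and female Purkinje clones fell as well, with changes of -0.77 and -0.73 (adjusted p over probes = 0.02778 and 0.02956). Male Purkinje clones changed by -0.45 (adjusted p over probes = 0.07941). Another, dim probe passed as lower in male Purkinje clones, where it lay on the floor on all 4 arrays, as on 2 of the 7 male IVF arrays (adjusted p over probes = 0.04073). On the standing probe male CA1 clones read 5.94 to 6.45, a change of -0.26 ± 0.20 (adjusted p = 0.3587). The 2 probes thus differed in sign for Purkinje clones of both sexes and female CA1 clones, and with the mean of all its kept probes the male Purkinje change was -0.33 (adjusted p = 0.4558).

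The Krüppel-like factors Klf2, Klf4 and Klf5 bind related GC-rich sites and can replace each other in part in embryonic stem cells. With the processing used here, none passed on the standing probes against IVF in any group. The largest change was that of Klf4 in Sertoli clones, which read 2.57, 2.14, 2.20 and 2.41, against 2.84 to 4.53 (median 3.32) in male IVF blastocysts. The groups did not overlap, and the change of -1.22 ± 0.48 missed the threshold (adjusted p = 0.05841), and passed without IVF replicate 4 or 5 (-1.33 to -1.31). It also passed with scaling to the array median (-1.35, adjusted p = 0.0376) and quantile normalization (-1.48, adjusted p = 0.02633). Array weights and the compared groups alone gave the same call (adjusted p = 0.02036 and 0.02969). Klf2 read 4.69, 4.24, 5.19 and 4.73 in male Purkinje clones, against 3.32 to 4.33 (median 4.02) in male IVF blastocysts, with a change of 0.84 ± 0.33 (adjusted p = 0.05494), which passed without Purkinje replicate 2 or IVF replicate 2 (0.92 to 1.00). The male Purkinje change of Klf2 also passed with array weights and with the compared groups alone (adjusted p = 0.0302 and 0.02861). In female CA1 clones Klf2 passed without replicate 3 (1.11, adjusted p = 0.04334) and changed by 0.69 with it (adjusted p = 0.2791). Klf5 changes ran from -0.81 ± 0.48 in Sertoli clones to 0.62 ± 0.48 in male CA1 clones (adjusted p = 0.2258 and 0.356). The intervals are wide: the 95% interval of the Klf5 change was -1.80 to 0.18 in Sertoli clones and -1.75 to 0.82 in cumulus clones. Dimmer second probes differed from this: that of Klf5, 1481 bases nearer the 3′ end, passed in Sertoli clones, where it lay on the floor on all 4 arrays (adjusted p over probes = 0.002826), and in male Purkinje clones (-2.40, adjusted p over probes = 0.04587). That of Klf2, 1376 bases nearer the 5′ end, passed in Sertoli clones (-0.94, adjusted p over probes = 0.02801).

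The Klf genes and Nanog differed between embryos of the same group more than most genes of like level. The SD within groups was 0.80 for Klf5, 0.79 for Klf4, 0.73 for Nanog and 0.54 for Klf2, at the 99.1st, 97.2nd, 96.1st and 90.6th percentile of genes of like level. For Zfp42 it was 0.28, at the 33.9th. Male CA1 clones read 3.67, 1.84, 4.95 and 4.92 for Klf4 and 5.85, 5.18, 7.14 and 7.01 for Klf5, the same embryos high in both. Over all 33 arrays the deviations of Klf4 and Klf5 correlated at r = 0.64, and those of Klf5 with Tfcp2l1 and Sox2 at -0.59 and -0.49, where the median of the 45 pairs was 0.06. The arrays of each group but male IVF share a slide, and these correlations are descriptions.

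The 7 male IVF blastocysts also varied. In the order of their replicate numbers, Sox2 read -0.33, -0.06, 1.15, 1.29, 1.37, -0.65 and -0.28. Klf5 read 6.47, 5.94, 5.42, 4.07, 4.35, 6.60 and 6.89, and Nanog 2.82, 1.87, 1.79, 1.45, 0.57, 2.74 and 2.63. The 3 embryos with the highest Sox2 values, replicates 3, 4 and 5, had the 3 lowest values of Klf5 and of Nanog. Replicates 1 to 4 lay on slide 2, replicate 5 on slide 3, and 6 and 7 on slide 4. Deviations of Nanog correlated with those of Klf5 at r = 0.81 in the earlier and -0.45 in the later array set. With those of Sox2 they correlated at -0.66 and 0.16. Sox2 and Klf5 correlated at -0.61 and -0.26.

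**Figure D5:**
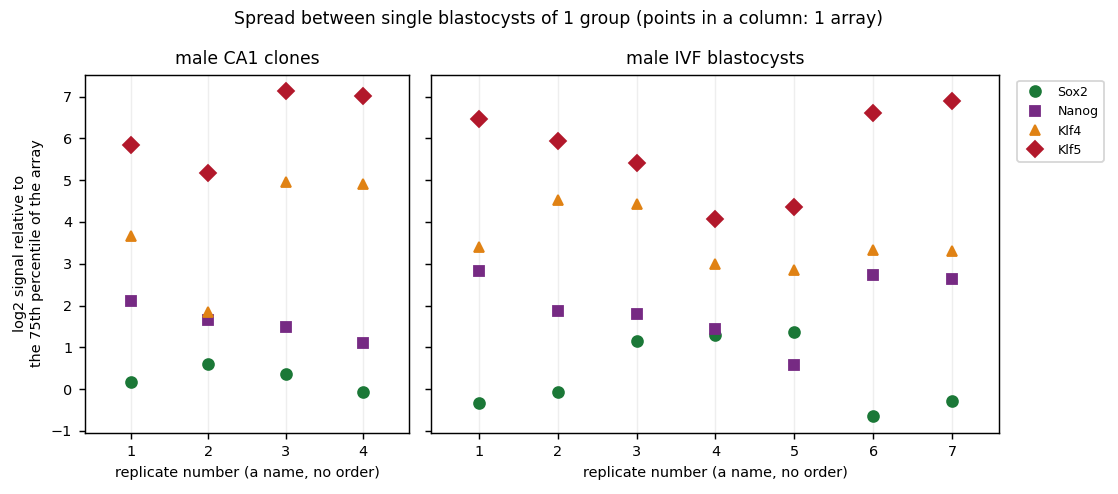
Level of Sox2, Nanog, Klf4 and Klf5 in each of the 4 male CA1 clones (left) and the 7 male IVF blastocysts (right), log2 relative to the 75th percentile of the array. Each gene has its own probe, so heights are to be read within a gene: IVF replicates 3, 4 and 5 are highest for Sox2 (1.15 to 1.37) and lowest for Klf5 (4.07 to 5.42).

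The neuronal and Sertoli clones shared an array set, but their donor cell cannot be told apart from slide and scan day. Between clones of different donor cells Zfp42 again led. It was higher in Purkinje than in CA1 clones by 0.96 ± 0.20 in males (1.94-fold, adjusted p = 0.001967) and by 1.52 ± 0.20 in females (2.86-fold, adjusted p = 5.829e-05). It was higher in male Purkinje than in Sertoli clones by 0.92 ± 0.20 (1.89-fold, adjusted p = 0.007015). In each of these the Purkinje clones lay wholly above the others. Without the 5 Purkinje arrays of low signal these changes were 0.62, 0.85 and 0.58 and none passed (adjusted p = 0.07182, 0.1613 and 0.1587). In the male Purkinje to CA1 comparison 3 of 10 factors passed, all higher, where 18.6% of all genes passed (10.9% higher, 7.75% lower). With normexp none of these 3 passed, and Pou5f1, Klf4 and Klf5 passed as lower (-0.94, -1.60 and -1.52, adjusted p = 0.0485, 0.02159 and 0.02965). Beside Zfp42, the 3 higher factors were Tfcp2l1 (0.91 ± 0.23, adjusted p = 0.006176) and Sall4 (0.92 ± 0.28, adjusted p = 0.02001). Neither of these passed without the arrays of low signal (adjusted p = 0.1808 and 0.1415). Sall4 also lost its call without male Purkinje replicate 2 or 3 or CA1 replicate 4 (0.67 to 0.87, adjusted p 0.06044 to 0.113). Klf4 was lower in Purkinje than in CA1 clones without CA1 replicate 2 (-1.69, adjusted p = 0.01737), against -1.03 with it (adjusted p = 0.1911). In females Zfp42 alone of the 10 passed, where 11.1% of all genes did (6.2% higher, 4.93% lower). Against Sertoli clones it was likewise 1 of 10, where 4.73% did (3.15% higher, 1.58% lower).

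Male CA1 clones were lower than Sertoli clones in Nanog and Sall4, where 12.1% of all genes passed (5.3% higher, 6.81% lower). Nanog read 2.11, 1.65, 1.49 and 1.10 in CA1 clones, against 2.11, 3.47, 2.78 and 4.27 in Sertoli clones, with a change of -1.57 ± 0.50 (2.97-fold, adjusted p = 0.03787). The highest CA1 clone and the lowest Sertoli clone both read 2.11 after rounding. Sall4 read 1.93 to 3.18 in CA1 clones and 3.39 to 4.41 in Sertoli clones, with no overlap and a change of -1.13 ± 0.28 (2.20-fold, adjusted p = 0.008428). The Sall4 call was lost without CA1 replicate 4 (-0.88, adjusted p = 0.05995). It was also lost with normexp, the mean of both probes, the compared groups alone and the replicate block. On the second, dimmer Sall4 probe the change was 0.12 (adjusted p over probes = 0.9422). On the second Tfcp2l1 probe CA1 clones changed by -1.61 (adjusted p over probes = 1.9e-05), against -0.50 on the standing probe (adjusted p = 0.1487). The Nanog call was lost without any 1 of Sertoli or CA1 replicates 2, 3 and 4 (changes -1.70 to -1.20, adjusted p 0.05179 to 0.1299). Left-out arrays included, 11 of 20 alternatives lost it, among them normexp and quantile normalization. Without CA1 replicate 2, which had the lowest Klf4 and Klf5 values of its group, both were higher in CA1 than in Sertoli clones (2.18 and 1.80, adjusted p = 0.004667 and 0.03873), against 1.52 and 1.43 with it (adjusted p = 0.06237 and 0.08508). Without Sertoli replicate 4 Pou5f1 was higher by 0.90 (adjusted p = 0.01342), against 0.61 with it (adjusted p = 0.1119).

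Male and female IVF blastocysts differed in none of the 10 factors in limma, and none had an unadjusted p under 0.05, where 0.431% of all genes passed. The difference of male from female change passed for 0 of 10 in Purkinje clones (0 at an unadjusted p under 0.05), where 0.0571% of all genes passed, and for 0 of 10 in CA1 clones (1 at an unadjusted p under 0.05), where 1.13% did. That 1 was Sall4, whose change against IVF was -1.23 in male and 0.20 in female CA1 clones, a difference of -1.44 ± 0.39 (adjusted p = 0.05974). It passed without male CA1 replicate 1 or 2, female CA1 replicate 1 or female IVF replicate 3 (-1.66 to -1.56). For Zfp42 the difference was -0.12 ± 0.29 in Purkinje clones, with a 95% interval of -0.70 to 0.47.

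The genes most like a factor were taken as those with the highest Pearson correlation of deviations from group means over the 33 arrays. For Klf5 they were Ncor1 (r = 0.94) and Glg1 (0.93), for Tfcp2l1 Fgl1 and 1600029O15Rik (both 0.91) and for Zfp42 Ywhae (0.84). For Pou5f1 they were a probe without a gene name (0.79) and Foxc2 (0.74). For Nanog the closest was Supt16 (0.81), for Sox2 Strap (0.81), for Klf4 Ints2 (0.81), for Klf2 Cutc (0.77), for Esrrb Cwc27 (0.77) and for Sall4 Sbp (0.73). The arrays of each group but male IVF share a slide here too.

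Of 20 tested further factors of the pluripotency network, 3 rose and 6 fell in male Purkinje, 3 and 7 in male CA1, 3 and 4 in Sertoli, 2 and 4 in female Purkinje and 2 and 2 in female CA1 clones, and 0 rose and 1 fell in cumulus clones. Of all genes 18.7%, 18.2%, 16.1%, 14%, 9.47% and 2.04% rose and 10.1%, 13.1%, 10.2%, 6.38%, 4.68% and 3.2% fell in these comparisons. The median change of the 20 ran from -0.57 to -0.10, beside -0.01 to 0.10 for all genes. Zscan10, a zinc finger partner of Sox2 and Oct4, averaged -1.03 ± 0.17 in male Purkinje, -0.61 ± 0.75 in male CA1 and -0.53 ± 0.65 in Sertoli clones, against 1.51 ± 0.32 in male IVF blastocysts. The changes were -2.53, -2.12 and -2.04 (adjusted p = 2.346e-05, 0.0001154 and 0.0002717). In female Purkinje, female CA1 and cumulus clones they were -2.11, -1.25 and -2.34 (adjusted p = 0.002142, 0.07226 and 0.007765). The cumulus change lay within 1 array set. Klf9, another Krüppel-like factor, rose by 1.77 in male Purkinje, 1.69 in female Purkinje and 1.61 in female CA1 clones. In male CA1, Sertoli and cumulus clones it changed by 0.35, 0.73 and 0.70 and did not pass.

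Of 16 tested targets and epiblast signals, 5 rose in male Purkinje, 3 in male CA1, 4 in Sertoli, 3 in female Purkinje, 1 in female CA1 and 0 in cumulus clones. Of all genes 18.7%, 18.2%, 16.1%, 14%, 9.47% and 2.04% rose in these comparisons. In the same order 2, 0, 1, 2, 1 and 0 of the 16 fell, where 10.1%, 13.1%, 10.2%, 6.38%, 4.68% and 3.2% of all genes did. Dppa3, a maternal factor also found in naive cells, rose by 1.14 in male Purkinje, 0.65 in male CA1, 0.86 in Sertoli and 1.24 in female Purkinje clones. In female CA1 and cumulus clones it changed by 0.60 and -0.14 and did not pass (adjusted p = 0.1692 and 0.9116). Tdgf1, a Nodal co-receptor, fell in male Purkinje, Sertoli and female Purkinje clones, with changes of -1.34, -1.07 and -1.57. In male CA1, female CA1 and cumulus clones it changed by -0.64, -0.89 and 0.29 and did not pass. Of these groups only cumulus clones shared an array set with IVF. There neither Dppa3 nor Tdgf1 changed in the direction given above for the groups that passed. Of 7 tested genes of the LIF pathway 2, 1, 1, 1, 0 and 0 rose and 1, 1, 1, 1, 0 and 0 fell. These counts are in the same order and stand beside the same shares of all genes. The kinase Jak1 rose by 1.42 in male Purkinje, 0.59 in male CA1 and 1.06 in female Purkinje clones, and Pim3, a kinase gene induced by Stat3, fell in these groups, with changes of -1.22, -1.59 and -1.27, and in Sertoli clones (-1.32), where Jak1 did not pass. In female CA1 and cumulus clones Jak1 changed by 0.67 and 0.24 and Pim3 by -0.59 and -0.82, and none of these passed. Of formative and primed markers 4 of 11 were tested and 0 or 1 passed per comparison, where 5.25% to 31.3% of all genes did. Among them was Foxd3, which rose by 1.64 in male Purkinje, 1.47 in male CA1 and 1.79 in Sertoli clones, all overlapping IVF. In female Purkinje, female CA1 and cumulus clones it changed by -0.10, -0.10 and 0.55 and did not pass. Its mean was 0.09 ± 1.37 in male and 1.63 ± 1.31 in female IVF blastocysts, and 1.53 to 2.18 in the clone groups.

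Markers of the other blastocyst lineages changed beside the factors. Of 13 primitive endoderm markers, 8 fell in male Purkinje, 9 in male CA1 and 7 in Sertoli, female Purkinje and female CA1 clones, and 4 in cumulus clones, with 1 that rose in male Purkinje and 1 in Sertoli clones. The shares of all genes that fell were 10.1% in male Purkinje, 13.1% in male CA1, 10.2% in Sertoli, 6.38% in female Purkinje, 4.68% in female CA1 and 3.2% in cumulus clones. The median change was -1.34, -1.70, -1.19, -1.59, -1.83 and -1.48. Their summed signal, in units of the 75th percentile, was 180 to 225 in male Purkinje, 146 to 211 in male CA1 and 194 to 258 in Sertoli clones, against 147 to 391 in male IVF blastocysts. It was 124 to 225 in female Purkinje, 158 to 293 in female CA1 and 135 to 279 in cumulus clones, against 195 to 292 in female IVF blastocysts. Foxa2 lay on the floor in all male Purkinje, Sertoli and female Purkinje clones. Of 14 trophectoderm markers 13 or 14 were well above background on every array. Per comparison 1 or 2 were higher and 0 to 5 lower, where 2.04% to 18.7% of all genes were higher and 3.2% to 13.1% lower. Hand1, a regulator of trophoblast giant cells, rose in the 5 groups of the later array set. It averaged 0.46, 0.48 and -0.32 in male Purkinje, male CA1 and Sertoli clones, against the floor of -3.42 on all 7 male IVF arrays. Its probe was well above background on at least 1 of those 7 arrays, and signals under the floor were raised to it. The size of the rise therefore depends on the floor. Krt7, a keratin, fell in the same 5 groups, with changes of -2.14 in male Purkinje, -1.07 in male CA1, -2.55 in Sertoli, -2.68 in female Purkinje and -2.01 in female CA1 clones. Cdx2, the defining trophectoderm factor, rose by 1.27 in female Purkinje clones and passed in no other group. The summed trophectoderm signal was 1160 to 1770 in male Purkinje, 929 to 1090 in male CA1 and 908 to 976 in Sertoli clones, against 1050 to 1500 in male IVF, and 1260 to 1520, 868 to 1140 and 964 to 1070 in female Purkinje, CA1 and cumulus clones, against 930 to 1180 in female IVF. The part of lineage proportions in the changes of the factors was not tested.

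Markers of the donor cells were low. Of 11 neuronal markers 7 were tested. None was higher in any clone group than in IVF, where 2.04% to 18.7% of all genes were higher and 3.2% to 13.1% lower. Nefl averaged 1.74 in male and 2.30 in female IVF blastocysts and fell in every clone group but male Purkinje (-4.79 to -3.41). Of the 7 markers 0 fell in male Purkinje, 2 in male CA1 and Sertoli, and 1 in female Purkinje, female CA1 and cumulus clones. Their summed signal was 1.90 to 4.14 in male Purkinje, 1.22 to 2.05 in male CA1, 1.33 to 3.87 in female Purkinje and 1.29 to 4.03 in female CA1 clones, against 3.71 to 12.1 in male and 5.63 to 8.44 in female IVF blastocysts. Of 7 Sertoli markers 4 were tested, with a summed signal of 1.11 to 2.23 in Sertoli clones and 0.393 to 6.46 in male IVF. Cst9 rose in male Purkinje, male CA1 and Sertoli clones alike. Of 7 cumulus markers 3 were tested, summing to 0.568 to 0.824 in cumulus clones and 0.362 to 0.764 in female IVF. Amhr2 rose in the 5 groups of the later array set and did not pass in cumulus clones.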

How the data were processed

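Amplified RNA of single blastocysts, made with 2-round linear amplification and labelled with Cy3, was read on 33 1-colour arrays, per the labels' protocols. The authors deposited the intensity of each spot as written by Agilent Feature Extraction, 10.5.1 in the submitters' processing notes, and 9.5.3.1 or 10.5.1.1 per the file headers. The processed signal, corrected for background by that software, was set relative to the 75th percentile of the non-control probes of its array, floored at 0.09375 of it (-3.42 on the log2 scale, 19.9% of values) and put on the log2 scale. The floor was the highest, over arrays, of the 1st percentile of probes well above background. Between 45.3% and 62.6% of spots were well above background, and the number of arrays limits the precision. Control and outlier spots were left out. In the 13 arrays of the earlier set 15.7% to 23.3% of spots were at or below 0, and in the other 20 none.

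Probes were named through RefSeq by accession (22944), symbol (6664) or synonym (3108), and 8458 kept the array's name. A probe was kept if over 50% of arrays in some group had it well above background (22725 probes), and the brightest stood for its gene. The present files lack gene names and mean signals, so names came from the earlier files, and the normexp alternative used median spot signals. All 33 arrays entered 1 linear model with a mean for each of the 8 groups, in lmFit and eBayes of limma 3.58.1 (R 4.3.3) across 15760 genes, with Benjamini-Hochberg adjustment over all genes (residual degrees of freedom 25), and every adjusted p in the text is limma's. The script was tested on simulated data. "Adjusted p over probes" comes from the same model over probes. The authors' deposited log2 table was an alternative: it matched log2 of the signal floored at 1, minus the 75th percentile, centred per probe within a sex (median absolute difference 0.0067 in 19 male and 0.0075 in 14 female arrays, column medians -0.59 to 0.77), so scale, centring and direction were settled within a sex and it gave no male to female comparison.

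The members and the other lists were chosen with earlier results of these data known. Genes of other lists were named by 1 rule: up to 5 per list with the largest mean change over the 6 comparisons with IVF among those that passed at least 1; fewer are described here, and 1 of them is not reported. The closest 2 genes by correlation were listed for each member. Promoters came from the RefSeq table (GRCm38.p6). Gene coordinates were not used here. Alternatives were background correction, scaling, filter, floor, probe choice, the authors' table, slide, array weights, samples fitted, replicate block and leaving out arrays.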

Additional observations from a re-analysis of the deposited data

Results flagged for a closer look

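Of 60 sets of 4 to 7 embryos (1 factor in 1 group), 3 held an embryo farther from the others than Dixon's 95% critical value allows, and chance gives about 1 in 20. Zfp42 in female Purkinje replicate 1 was 6.19, while the other 3 read 7.05 to 7.09, and that array had the highest 75th percentile of its group, 840.4, against 354.7 to 469.3 in the others. Klf4 in male Purkinje replicate 1 was 3.91, while the others read 2.38 to 2.54. Esrrb in male Purkinje replicate 2 was -0.53, while the others read 1.36 to 1.68.

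On its standing probe, Tfcp2l1 lay on opposite sides of IVF in CA1 clones of the sexes. All 4 male clones were below the male IVF mean, by -0.25 on average, and all 4 female clones above the female IVF mean, by 0.20 on average, a difference of -0.45. In the limma model this difference did not pass (adjusted p = 0.5675). On the second-brightest probe CA1 clones of both sexes were lower than IVF and passed, with changes of -1.57 in males and -0.77 in females.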

How the results depend on the processing

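Of the 18 calls of a factor, Zfp42 in male Purkinje clones against IVF passed under all 23 alternatives (changes 0.96 to 1.83), and Sall4 in male CA1 clones against IVF under 21 of 22 (-1.45 to -0.91). With no filter on dim probes all 18 passed, and with a floor at a signal of 1, the authors' table or array weights 17 did. With normexp 2 passed (Zfp42 in male Purkinje and Sall4 in male CA1 clones, against IVF), and in the male Purkinje to CA1 comparison the 3 calls then gave way to 3 of other factors in the opposite direction (Pou5f1, Klf4 and Klf5, all lower). Zfp42 in female Purkinje clones then changed by 1.05 (adjusted p = 0.07538). The median change of all genes in female Purkinje clones was 0.31 with normexp and -0.29 with scaling to the array median, against 0.10 in the report, and in female Purkinje to CA1 it was -0.38 with scaling to the array median, against 0. The causes were not tested. Apart from the replicate block in 1 comparison, the share of all genes called under a setting is not set beside the counts below. Nothing particular to the factors is therefore read from them. The number of factors called was as follows. With normexp it was 1 in male CA1 and 0 in Sertoli, female Purkinje and cumulus clones against IVF, and 0 in the female Purkinje to CA1, male Purkinje to Sertoli and male CA1 to Sertoli comparisons. It was 2 in female Purkinje clones with median scaling (Pou5f1 added, lower) and 1 in male CA1 to Sertoli with quantile normalization. With the mean of all probes it was 1 in male Purkinje, 1 in male CA1 and 0 in cumulus clones, and Tfcp2l1 in male Purkinje clones was -0.33. With slide as a random block (consensus correlation 0.0299) it was 2 in Sertoli clones, 1 in cumulus clones and 1 in male CA1 to Sertoli. Every group but male IVF lay on 1 slide, so this setting cannot separate slide from clone group. With array weights the number was 4 in male and 2 in female Purkinje clones, 6 and 2 in male and female Purkinje to CA1, 2 in male Purkinje to Sertoli, 7 in male CA1 to Sertoli and 1 in the sex difference of CA1 clones. With the compared groups alone it was 0 in cumulus clones, male Purkinje to Sertoli and male CA1 to Sertoli. Without the 5 low-signal Purkinje arrays, an alternative chosen after seeing the data, it was 1 in male Purkinje clones and 0 in male and female Purkinje to CA1 and male Purkinje to Sertoli. Leaving out single arrays gave 1 to 3 in male Purkinje, 2 in male CA1, 1 to 4 in Sertoli, 1 to 2 in female Purkinje, 0 to 1 in female CA1 and 0 to 1 in cumulus clones against IVF. It gave 2 to 4 and 1 in male and female Purkinje to CA1, 1 in male Purkinje to Sertoli, 0 to 3 in male CA1 to Sertoli, 0 in IVF, and 0 and 0 to 1 in the sex differences of Purkinje and CA1 clones. Same-numbered embryos did not all deviate together in any comparison (r from -0.21 to 0.30), though 3 of 4 had r over 0.1 in male Purkinje clones against IVF. With 3 or 4 such embryos per comparison this does not settle whether numbers pair embryos, and the labels name no pairs. With the replicate block the number was 1 in male Purkinje, 1 in male CA1 and 0 in Sertoli, female Purkinje and cumulus clones, and 0 in the 4 comparisons between donor cells. Of all genes, 1071 instead of 4536 were then called in male Purkinje clones against IVF.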
